A study of Mus musculus with 6 samples.

Results

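MicroRNA genes outside the imprinted Dlk1-Dio3 domain were followed in the lungs of mouse embryos at E18.5, shortly before birth. Whole lungs of 3 Tnrc6a null and 3 WT embryos had been hybridised to Affymetrix Mouse Gene 1.0 ST arrays, with 1 embryo on each. The members were the genes measured by a probe set of their own whose symbol marks a microRNA (Mirlet7, or Mir followed by a digit). Genes between Dlk1 and Dio3 on chromosome 12 and the miR-34 and miR-449 genes were left out. The rule gave 255 of the 19938 genes of the table. Of these, 251 were microRNA genes and 4 were long host transcripts whose symbols end in hg, which are described apart. Another 65 microRNA symbols were measured only by probe sets shared with other genes and were not used. The Tnrc6a null embryos, labelled mutant, carry 2 copies of a gene trap that inserts beta-galactosidase into the Tnrc6a locus (GW182gt/gt). All 6 embryos were on a C57BL/6 background, no treatment is labelled, and the trap acts in the whole embryo rather than in a chosen lung cell type. The labels name separate embryos but no litter or processing batch.

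Tnrc6a itself lay at 5.45, 5.04 and 5.40 in the Tnrc6a null lungs, against 7.38, 7.13 and 7.18 in the WT lungs. Every Tnrc6a null lung was below every WT lung, with a difference of -1.93 ± 0.13 (SE, adjusted p = 0.00312, limma), and it was the 1 gene of the table past the adjusted threshold (0.00502% of genes). Values are given on the deposited log scale, which the labels call log2. The base was not settled here, so differences are given on that scale (Tnrc6a null minus WT) and no fold is derived. All 6 lung markers were measured between 6.47 and 11.75, and 0 of them differed at an unadjusted p under 0.05. Of the 5 endothelial markers, 2 were lower at that level, Pecam1 at -0.18 ± 0.07 and Cdh5 at -0.23 ± 0.07 (SE). Kdr and Tek gave -0.12 ± 0.08 and -0.08 ± 0.11. Egfl7 went the other way, at 0.11 ± 0.07, with every Tnrc6a null lung above every WT lung. The mean level of the 5 ran from 8.76 to 8.87 in the Tnrc6a null lungs and from 8.86 to 8.97 in the WT lungs. None of the muscle, leukocyte, liver or neural markers, nor the 2 of 5 erythroid markers that were measured, reached it in either direction. In whole lung, fewer cells of a type and less RNA per cell cannot be told apart.

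MicroRNA genes are transcribed as long primary transcripts, often inside the intron of a host gene or several to a transcript. Drosha and Dgcr8 cut out a hairpin, Dicer1 frees the mature strand, and an Argonaute protein carries it to mRNAs that pair with its seed, the bases near its 5′ end. Tnrc6 proteins, of which Tnrc6a (GW182) is one, bind Argonaute and recruit the machinery that deadenylates and represses the target. In the developing lung, let-7, miR-200 and the miR-17-92 cluster are known for roles in progenitor proliferation and epithelial identity. The deposited values do not separate a mature strand from its hairpin or its longer precursors.

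The mature strands of the genes at an unadjusted p under 0.05, and of neighbours of some of them, are shown so that shared seeds can be read off. None of these genes passed the adjusted threshold, and their counts are set beside those of all genes below. Sequences are those of RefSeq on GRCm38.p6, written 5′ to 3′ with the seed (bases 2 to 8) in capitals. RefSeq entries were matched by symbol for 226 of the 251 microRNA genes, of which 214 had a hairpin sequence. The first pair, from introns of the pantothenate kinase genes Pank3 (Mir103-1, chr11:35782396-35782481, plus strand) and Pank1 (Mir107, chr19:34820687-34820773, minus strand), share a seed and differ at the substitution G22C alone, counted from the 5′ end of miR-103-3p.
miR-103-3p: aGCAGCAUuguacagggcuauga
miR-107-3p: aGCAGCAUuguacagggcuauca
The second pair lies in the gene Nfyc (Mir30e, chr4:120772606-120772697, minus strand), which codes for a subunit of the CCAAT-binding factor NF-Y. Both carry the miR-30 seed.
miR-30e-5p: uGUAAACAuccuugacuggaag
miR-30c-5p: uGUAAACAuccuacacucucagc
The third pair are neighbours on chromosome 11 with the seed of miR-15 and miR-16 (Mir195a, chr11:70235042-70235135, plus strand).
miR-195a-5p: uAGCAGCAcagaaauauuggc
miR-497a-5p: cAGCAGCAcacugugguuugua
The fourth pair are neighbours on chromosome 6 (Mir200c, chr6:124718322-124718390, minus strand). Their seeds differ at U4C, counted from the 5′ end of miR-200c-3p, and so belong to separate seed groups of the miR-200 family.
miR-200c-3p: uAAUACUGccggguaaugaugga
miR-141-3p: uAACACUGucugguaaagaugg
For Mir301b (chr16:17124400-17124496, minus strand) the whole hairpin is shown. The capitals mark the stretch that equals the seed of its neighbour miR-130b-3p, which a search found once in the hairpin.
miR-130b-3p: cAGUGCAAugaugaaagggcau
Mir301b hairpin: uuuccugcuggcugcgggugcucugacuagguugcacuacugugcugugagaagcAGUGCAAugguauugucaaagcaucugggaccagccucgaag
The remaining strands each had a seed of their own among the sequences printed. They are let-7g from an intron of Wdr82 (chr9:106178840-106178927, plus strand), miR-680, whose mature sequence is the same in 3 gene copies (Mir680-3, chr12:35194811-35194897, minus strand), miR-676 from Eda (chrX:100381097-100381185, plus strand), miR-551b from Egfem1 on chromosome 3, and miR-490 from the muscarinic receptor gene Chrm2 (chr6:36421742-36421825, plus strand).
let-7g-5p: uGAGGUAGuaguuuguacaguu
miR-680: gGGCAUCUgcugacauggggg
miR-676-3p: cCGUCCUGagguuguugagcu
miR-551b-3p: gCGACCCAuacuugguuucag
miR-490-3p: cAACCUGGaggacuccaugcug

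None of the 251 microRNA genes passed the adjusted threshold in limma (smallest adjusted p = 0.89), and 0 did in the methods' t-test on the same values. At an unadjusted p under 0.05, 11 were higher in Tnrc6a null lungs (4.38%, against 2.46% of all genes) and 1 was lower (0.398%, against 2.96% of all genes). In either direction that is 12 genes, with 5.42% of all genes as background. Most of the 251 were dim, and shares over genes of like level are given further below. Without Tnrc6a null replicate 3 the counts were 23 higher (9.16%, against 5.91% of all genes in that fit) and 2 lower (with 2.73% of all genes lower). After quantile normalization over all probe sets, 7 were higher and 2 lower (all genes, 2.01% and 2.44%), and over those with 1 symbol 8 were higher and 4 lower (all genes, 2.51% and 2.14%). On average 185 were higher, 63 were lower and 3 were equal. This split depended on the scaling, with 146 higher and 104 lower after quantile normalization of the arrays over all probe sets, and 138 higher and 113 lower after quantile normalization over those with 1 symbol. The median difference was 0.10 (quartiles -0.0017 and 0.19), with extremes of -0.37 and 0.76, against a median of 0.00 over all genes. After the 2 quantile normalizations the median was 0.037 and 0.026. Every Tnrc6a null lung lay above every WT lung for 21 genes (8.37%, against 4.67% of all genes), and below for 1 gene (0.398%, against 5.51% of all genes). After quantile normalization over all probe sets these counts were 15 above and 6 below (all genes, 3.91% and 5.45%), and over those with 1 symbol 17 above and 8 below (all genes, 5.09% and 4.77%). For comparison, the 40 genes between Dlk1 and Dio3 had a median of 0.38, and 25 of them (62.5%) were higher at an unadjusted p under 0.05. The spread within genotype was wider for the microRNA genes, with a median pooled SD of 0.22 against 0.15 over all genes.

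The microRNA genes were dim, and their differences were read against genes of like level. Their median level was 3.67, with a range of 1.13 to 8.03, against 5.43 over all genes. Below that all-gene median lay 212 of them. At an unadjusted p under 0.05, 4.25% of the 212 were higher and 0.472% lower, against 3.4% and 0.672% of all genes there. Every Tnrc6a null lung lay above every WT lung for 8.96% and below for 0.472%, against 6.59% and 1.59%. Of the 39 above the all-gene median, 5.13% were higher and 0 lower, against 1.51% and 5.25% of all genes there. With all genes ranked by level and cut into 10 bins of equal size, 93 of the microRNA genes (37.1%) fell in the dimmest bin. There the median difference of the microRNA genes was 0.08, against 0.15 for all genes of the bin, and 0 of the 93 were higher at an unadjusted p under 0.05, against 3.31% of all genes there. In the second bin the medians were 0.09 for microRNA genes and 0.11 for all genes, and 3 of 40 were higher at that level, against 5.42% of all genes there. From the third bin upward the order was the other way round. The microRNA medians lay between 0.07 and 0.20, while those of all genes ran from 0.06 in the third bin down to -0.06 in the brightest. The 3 brightest bins held only 6, 2 and 1 microRNA genes. In the first of these, 2 of the 6 (Mir680-2 and Mir680-3) were higher at an unadjusted p under 0.05, against 1.15% of all genes there. These 2 are copies with 1 mature sequence and may share signal, so they may not be separate cases. Mir680-2 also overlapped between genotypes.

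**Figure D1:**
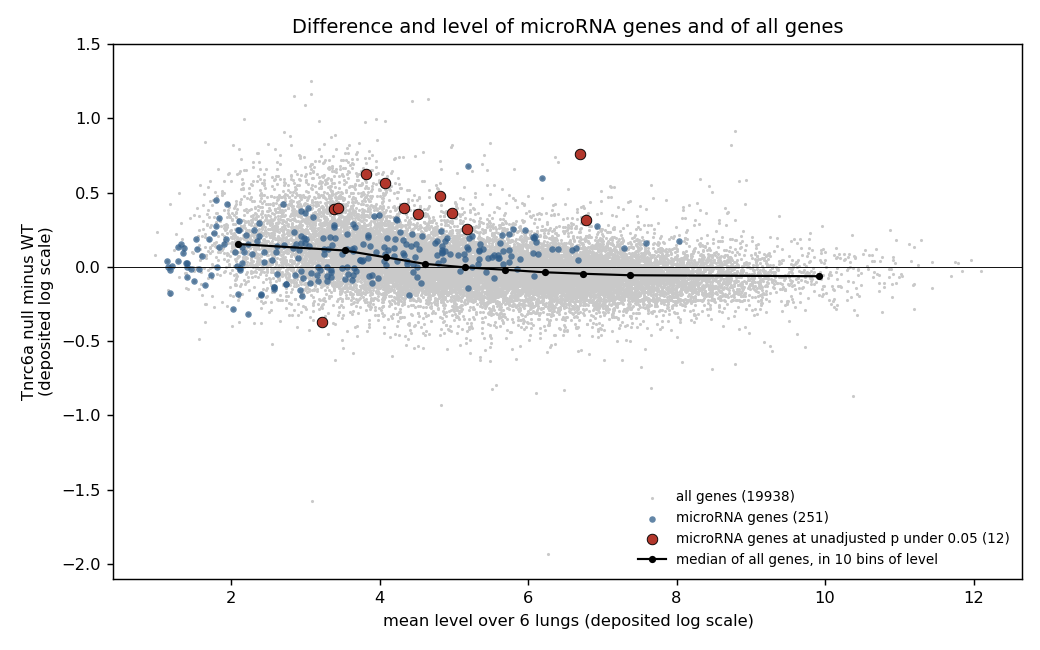
Difference between Tnrc6a null and WT lungs (vertical, deposited log scale) against mean level over the 6 lungs (horizontal, deposited log scale), with 1 point for each gene and the median of all genes in 10 bins of level as a line, each median at the middle of its bin. The line falls below 0 from the fifth bin on, where most microRNA genes stay above 0, and 11 of the 12 microRNA genes at an unadjusted p under 0.05 lie above it.

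By lung, the median level of the 251 genes was 3.77, 3.78 and 3.81 in the Tnrc6a null lungs and 3.63, 3.69 and 3.65 in the WT lungs. The genotypes did not overlap in this median on the deposited scale. Lung medians were not taken after quantile normalization, where the median difference of the 251 genes was 0.037 and 0.026. After each gene's own mean was taken off, the medians were 0.02, 0.05 and 0.05 in the Tnrc6a null lungs, against -0.15, -0.02 and -0.0017 in the WT lungs. WT replicate 1 stood lowest, and over all genes it also had the lowest median of the 6, at -0.07.

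Among the 12 genes at an unadjusted p under 0.05, 2 encode the near-identical miR-103 and miR-107, which are known to target Dicer1. Mir103-1 had 4.22, 4.28 and 3.89 in Tnrc6a null lungs and 3.34, 3.51 and 3.67 in WT lungs. All Tnrc6a null lungs were above all WT lungs, by 0.62 ± 0.16 (SE, unadjusted p = 0.00377, limma). Mir107 had 5.04, 5.11 and 5.32 in Tnrc6a null lungs and 4.52, 5.0 and 4.86 in WT lungs. The genotypes were close, with the lowest null lung just above the highest WT lung, and differed by 0.36 ± 0.15 (SE, unadjusted p = 0.0367, limma). Mir103-2 in Pank2, which gives the same mature strand as Mir103-1, had 3.98, 4.37 and 4.04 in Tnrc6a null lungs and 4.11, 3.99 and 3.88 in WT lungs. Its genotypes overlapped, and its difference was 0.14 ± 0.15 (SE). Since these copies are so alike, signal may be shared among their probe sets and each value is uncertain. The hosts gave -0.16 ± 0.13 for Pank3 and -0.08 ± 0.13 for Pank1. Dicer1 lay at 7.92, 7.83 and 7.88 in Tnrc6a null lungs and 7.84, 7.83 and 7.90 in WT lungs.

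Mir30e, of the miR-30 family known from epithelia, had the smallest p of the set. Its 3 Tnrc6a null lungs were at 5.13, 5.06 and 4.98, and its 3 WT lungs at 4.74, 4.45 and 4.55. The groups were well apart, by 0.48 ± 0.12 (SE, unadjusted p = 0.00308, limma). The other 5 miR-30 genes measured differed by -0.02 to 0.20, and 0 of them reached an unadjusted p under 0.05. Mir30c-1 in the same host gave 0.12 ± 0.14 and Nfyc itself gave 0.10 ± 0.07 (SE).

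Mir301b belongs to the family of miR-130 and miR-301, known for roles in the pulmonary vessel wall. It had 4.22, 4.20 and 4.66 in Tnrc6a null lungs and 3.81, 3.79 and 3.78 in WT lungs. The WT lungs were nearly equal and all Tnrc6a null lungs were above them, by 0.57 ± 0.15 (SE, unadjusted p = 0.00514, limma). Its neighbour Mir130b, in the same host gene, was at 3.61, 3.65 and 3.81 in Tnrc6a null lungs and 3.68, 3.40 and 3.67 in WT lungs. Those values overlapped, with a difference of 0.11 ± 0.15 (SE). Mir130a gave 0.01 ± 0.14 and Mir301 gave 0.22 ± 0.21. The host 2610318N02Rik gave 0.29 ± 0.16 (SE, unadjusted p = 0.117, limma).

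The miR-15/16 family restrains cell cycle genes such as cyclins. Mir195a had 4.46, 4.60 and 4.50 in Tnrc6a null lungs and 4.25, 4.0 and 4.13 in WT lungs. All null lungs were higher, by 0.39 ± 0.12 (SE, unadjusted p = 0.0109, limma). Its neighbour Mir497 had 5.16, 5.19 and 5.54 in Tnrc6a null lungs and 5.08, 5.08 and 5.14 in WT lungs. The genotypes touched but did not overlap, and the difference was 0.20 ± 0.12 (SE). Of the 6 family members, 5 were higher on average and Mir15b was at -0.05 ± 0.17. Their median was 0.22, the highest of the 21 families and tissue groups set out.

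MiR-200c and its relatives repress Zeb1 and Zeb2 and so help to keep epithelial identity. Mir200c had 4.75, 4.66 and 4.66 in Tnrc6a null lungs and 4.23, 4.38 and 4.40 in WT lungs. The replicates were tight and the genotypes apart, by 0.35 ± 0.11 (SE, unadjusted p = 0.0122, limma). Mir141, which follows it on the same strand, had 3.05, 2.77 and 2.98 in Tnrc6a null lungs and 2.87, 3.0 and 2.76 in WT lungs. Its genotypes overlapped and differed by 0.06 ± 0.16 (SE). From the other cluster of the family, Mir200b gave 0.16 ± 0.17 and Mir200a gave 0.06 ± 0.15, so all 4 were higher on average and 1 reached an unadjusted p under 0.05. After quantile normalization 3 of the 4 were higher.

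Let-7 promotes differentiation and is held back by Lin28 in early embryos. Mirlet7g had 3.80, 3.70 and 3.42 in Tnrc6a null lungs and 3.26, 3.24 and 3.24 in WT lungs. The null lungs were all higher, by 0.39 ± 0.15 (SE, unadjusted p = 0.0293, limma), while its host Wdr82 gave 0.03 ± 0.09. The other 8 let-7 genes were split, with a median over all 9 of 0.02, which turned to -0.0397 and -0.0167 under quantile normalization over all probe sets and over those with 1 symbol. Mirlet7d gave 0.21 ± 0.17, Mirlet7i gave -0.03 ± 0.14 and Mirlet7f-1 gave -0.07 ± 0.19. Lin28a and Lin28b did not pass the test (0.08 ± 0.14 and 0.21 ± 0.25, SE).

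The 3 genes for miR-680 share 1 mature sequence, so signal may be shared among their probe sets and each value is uncertain. Mir680-3 had 6.86, 6.83 and 7.12 in Tnrc6a null lungs and 6.70, 6.61 and 6.55 in WT lungs, apart by 0.32 ± 0.10 (SE, unadjusted p = 0.0121, limma). Mir680-2 had 7.52, 7.44 and 6.27 in Tnrc6a null lungs and 6.10, 6.78 and 6.07 in WT lungs. Here Tnrc6a null replicate 3 lay with the lower WT lungs, and the difference of 0.76 ± 0.32 was the largest of the set (SE, unadjusted p = 0.045, limma). Mir680-1 also had Tnrc6a null replicate 3 low, with 6.40, 5.96 and 4.24 in Tnrc6a null lungs and 4.27, 5.66 and 4.64 in WT lungs. It had the widest spread of the 251 genes (pooled SD 0.95), and its difference was 0.68 ± 0.54.

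Of the other 3 genes, Mir676 lies in Eda, the gene of the signalling protein ectodysplasin. It had 3.47, 3.68 and 3.58 in Tnrc6a null lungs and 3.12, 3.07 and 3.37 in WT lungs, apart by 0.39 ± 0.15 (SE, unadjusted p = 0.0307, limma), with Eda at -0.01 ± 0.18. Mir551b had 5.43, 5.27 and 5.20 in Tnrc6a null lungs and 5.09, 4.91 and 5.13 in WT lungs, apart by 0.26 ± 0.11 (SE, unadjusted p = 0.0497, limma). Its host Egfem1 ran the other way, at -0.22 ± 0.09 (SE, unadjusted p = 0.0292, limma). Mir490 was the 1 gene that was lower. It had 2.82, 3.13 and 3.18 in Tnrc6a null lungs and 3.39, 3.33 and 3.53 in WT lungs. All null lungs were below all WT lungs, by -0.37 ± 0.16 (SE, unadjusted p = 0.0464, limma). Its host Chrm2, the M2 muscarinic receptor of smooth and cardiac muscle, gave -0.41 ± 0.22 (SE, unadjusted p = 0.0998, limma). The nearest genes on the far side of the threshold were Mir532, Mir205 and Mir692-1, with differences of 0.31, 0.34 and 0.60 (unadjusted p = 0.0602, 0.0654 and 0.0659, limma).

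These calls differed in how far they rested on single lungs. With each of the 6 lungs left out in turn, Mir30e, Mir103-1, Mir301b, Mir680-3 and Mir200c kept an unadjusted p under 0.05 every time. Mir195a lost it without WT replicate 2 (0.33, unadjusted p = 0.0514, limma). Mir676, Mir107 and Mir680-2 kept it in 2 of the 6 fits, and Mirlet7g, Mir551b and Mir490 in 1. The difference of Mir107 was 0.23 without WT replicate 1, and that of Mir680-2 was 1.16 without Tnrc6a null replicate 3.

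**Figure D2:**
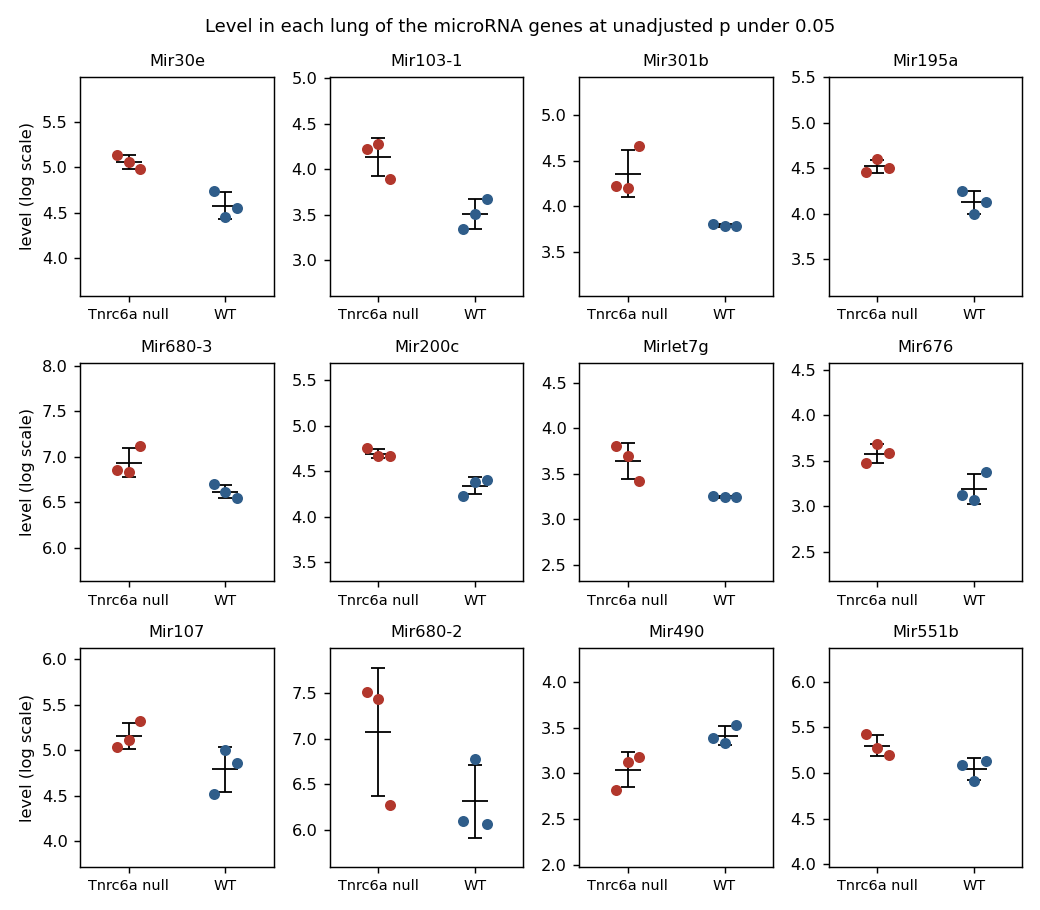
Level in each lung (vertical, deposited log scale, the same span of values in every panel) of the 12 microRNA genes at an unadjusted p under 0.05, Tnrc6a null at left and WT at right. Points are lungs and bars give the mean ± SD (n = 3 each). The genotypes are apart in 11 panels and overlap for Mir680-2, and Mir490 is the 1 gene whose null lungs are lower.

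Among the 10 brightest microRNA genes, Mir680-2 and Mir680-3 are described above, and the other 8 did not reach an unadjusted p under 0.05. Mir505 had the highest level, with 8.35, 8.36 and 7.64 in Tnrc6a null lungs and 7.63, 8.10 and 8.09 in WT lungs. The genotypes overlapped widely (0.18 ± 0.20, SE). Mir218-1, from an intron of the axon guidance ligand gene Slit2, had 7.61, 7.40 and 8.01 in Tnrc6a null lungs and 7.68, 7.41 and 7.44 in WT lungs. It too overlapped, at 0.16 ± 0.15. Mir15a averaged 7.30 over the 6 lungs and differed by 0.13 ± 0.09, and Mir346 averaged 6.93 and differed by 0.27 ± 0.15. Mir145a of smooth muscle, Mir674, Mir139 of the Pde2a gene and the hypoxia-responsive Mir210 averaged 6.40 to 6.68. Their differences were 0.04 ± 0.21, 0.13 ± 0.09, 0.11 ± 0.12 and 0.12 ± 0.13 in that order. These levels are not per length and depend on the probes, so they give no order of abundance. Mir146b, a repressor of inflammatory signalling, had 3.93, 3.75 and 4.13 in Tnrc6a null lungs and 3.96, 3.99 and 4.09 in WT lungs. Mir92b had 5.69, 5.64 and 6.07 in Tnrc6a null lungs and 5.56, 5.66 and 5.97 in WT lungs. Both overlapped, with differences of -0.08 ± 0.14 for Mir146b and 0.07 ± 0.15 for Mir92b.

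By family and known tissue, 129 of the 251 genes fell into 21 groups, listed with earlier results of these data known. The miR-17-92 cluster and its paralogs, which drive proliferation of lung epithelial progenitors, had 13 measured members, of which 8 were higher on average, 5 were lower and 0 reached an unadjusted p under 0.05. Quantile normalization over probe sets with 1 symbol turned this to 6 higher and 7 lower. Within them the X-linked cluster of Mir106a, Mir19b-2, Mir20b, Mir363 and Mir92-2 was higher in all 5 members, by 0.15 to 0.31, and in 4 of the 5 under that normalization. The chromosome 14 cluster was divided, at -0.08 to 0.15. Mir20b had 3.11, 3.13 and 2.99 in Tnrc6a null lungs and 2.83, 2.94 and 2.88 in WT lungs, which did not overlap, for a difference of 0.19 ± 0.15. Mir25, in Mcm7, gave 0.22 ± 0.11 (SE, unadjusted p = 0.0797, limma). The cluster of Mir302a to Mir302d and Mir367, known from stem cells and early endoderm, was dim, at 1.58 to 2.55, and its 5 members differed by -0.02 to 0.28.

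Groups of other lung cell types also held no further member at an unadjusted p under 0.05. Mir126a, the endothelial microRNA in an intron of Egfl7, had 4.25, 3.89 and 3.71 in Tnrc6a null lungs and 3.58, 3.87 and 3.75 in WT lungs. These overlapped and differed by 0.22 ± 0.17 (SE), and Egfl7 differed by 0.11 ± 0.07. Of the endothelial markers, Pecam1 and Cdh5 were lower and Egfl7 was higher on average, as given above. The part of endothelial cells in the value of Mir126a was not tested. In smooth muscle, Mir143 gave 0.21 ± 0.13 beside Mir145a. Of 13 blood and immune microRNA genes, 11 were higher on average and 2 lower, or 9 and 4 under both quantile normalizations. Mir142 of haematopoietic cells gave 0.28 ± 0.22, and Mir451a of erythroid cells gave 0.14 ± 0.17. The 5 leukocyte markers overlapped between genotypes, with a mean level of 6.24 to 6.77 in Tnrc6a null lungs and 6.42 to 6.87 in WT lungs.

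MicroRNA genes known from tissues other than lung varied in level. Median levels were 2.18 for striated muscle, 3.49 for liver, gut and pancreas and 4.10 for neural tissue, against 3.67 over all 251. The 7 of striated muscle lay at 1.35 to 2.70 and 6 were higher on average, or 4 and 2 under quantile normalization over all probe sets and over those with 1 symbol. Mir499, from an intron of Myh7b, had 2.86, 2.83 and 3.03 in Tnrc6a null lungs and 2.65, 2.10 and 2.70 in WT lungs. These did not overlap, and differed by 0.42 ± 0.21 (SE, unadjusted p = 0.0704, limma). The 17 of neural tissue had a median of 0.07, which was -0.0067 under quantile normalization over probe sets with 1 symbol, with Mir7b highest at 0.35 ± 0.19. Of 9 known from liver, gut and pancreas, Mir216b and Mir217 were highest, at 0.36 ± 0.18 and 0.45 ± 0.26. The sensory organ cluster of Mir182, Mir183 and Mir96 was the group with the lowest median. Its members differed by -0.19 ± 0.19, -0.18 ± 0.20 and -0.04 ± 0.16 (SE), and all 3 stayed lower under each scaling. Among imprinted genes elsewhere in the genome, Mir335 in Mest and Mir184 did not overlap between genotypes, at 0.27 ± 0.15 and 0.20 ± 0.14. Mest itself was at -0.01 ± 0.11. Mir483 in Igf2 gave 0.25 ± 0.16 with Igf2 at -0.0067 ± 0.11 (SE). The remaining groups held 0 members at an unadjusted p under 0.05 and had medians from -0.02 (repeats in Sfmbt2) to 0.18 (miR-23, miR-27 and miR-24). Among them miR-29, which targets collagen mRNAs, was measured by Mir29a (-0.0067 ± 0.27) and Mir29b-1 (0.16 ± 0.29, SE).

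**Figure D3:**
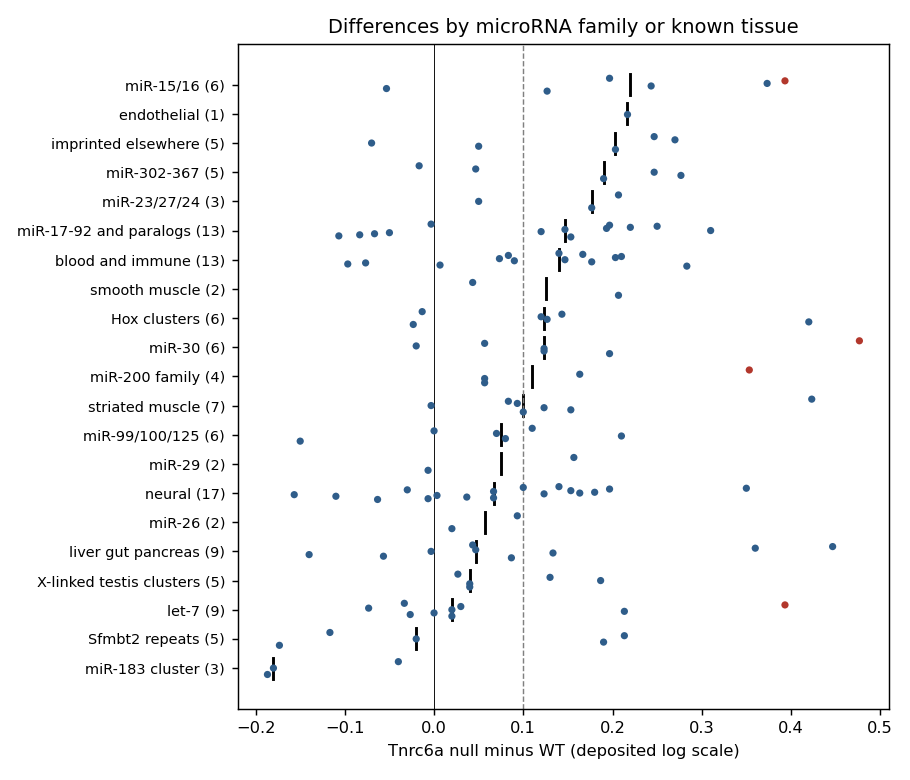
Difference between Tnrc6a null and WT lungs (horizontal, deposited log scale) of the microRNA genes in each family or known tissue (rows, with the number measured). Points are genes, red at an unadjusted p under 0.05, black bars are group medians and the dashed line is the median of 0.10 over all 251. Medians run from -0.18 for the miR-183 cluster to 0.22 for miR-15/16, and the 4 red points sit in 4 different groups.

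Neighbours on 1 strand no more than 10 kb apart can come from a single primary transcript. There were 37 such clusters with 93 measured members, 10 of them with 3 or more. All members were higher on average in 18 clusters, all were lower in 3, 14 were mixed and 2 held a difference of exactly 0. After quantile normalization, 9 clusters had all members higher, while 6 (all probe sets) or 8 (those with 1 symbol) had all members lower. In 4 clusters 1 member was higher at an unadjusted p under 0.05, and in 0 clusters were 2 or more. The partners of these 4 are the ones printed above, Mir30c-1, Mir130b, Mir497 and Mir141, with differences of 0.12, 0.11, 0.20 and 0.06. Of the 5 members in Clcn5 on chromosome X, 4 were higher and 1 lower, between -0.19 and 0.31. Mir23a, Mir27a and Mir24-2 were all higher, by 0.05 to 0.21. On chromosome X as a whole, 39 genes were measured, of which 2 were higher at an unadjusted p under 0.05 (5.13%), against 9 of 212 on the autosomes (4.25%).

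A microRNA inside a gene on the same strand can share that gene's transcript, though the annotation gives position only. By the RefSeq annotation, 118 of the 251 lay in such a host. For 89 of them 1 measured host was found, among 71 distinct hosts. The median difference was 0.11 for these microRNA genes and 0.02 for their hosts, and the microRNA had the higher difference in 62 pairs. In 81 of the 89 pairs the microRNA gene was dimmer than its host, with median levels of 3.93 and 6.29. In the bins of level that hold these medians, all genes had median differences of 0.06 and -0.04. Whether the pairs differ beyond this dependence on level was not tested. Difference of microRNA and difference of host correlated weakly over the 89 pairs (Pearson's r = 0.19, Spearman's rho = 0.10), and the sign was shared in 52. The pairs share the 6 arrays, and some share a host. Of the 71 hosts, 0 were higher and 2 were lower at an unadjusted p under 0.05, Egfem1 and Tango2. Over all genes 2.46% were higher and 2.96% lower, so the count of lower hosts was near that share. Tango2, the host of Mir185, differed by -0.36 (unadjusted p = 0.00282, limma). The median of member minus host was 0.08. It was 0.01 when the arrays were quantile normalized over all probe sets, and -0.0078 when normalized over the probe sets with 1 symbol, so its direction turned with the scaling.

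**Figure D4:**
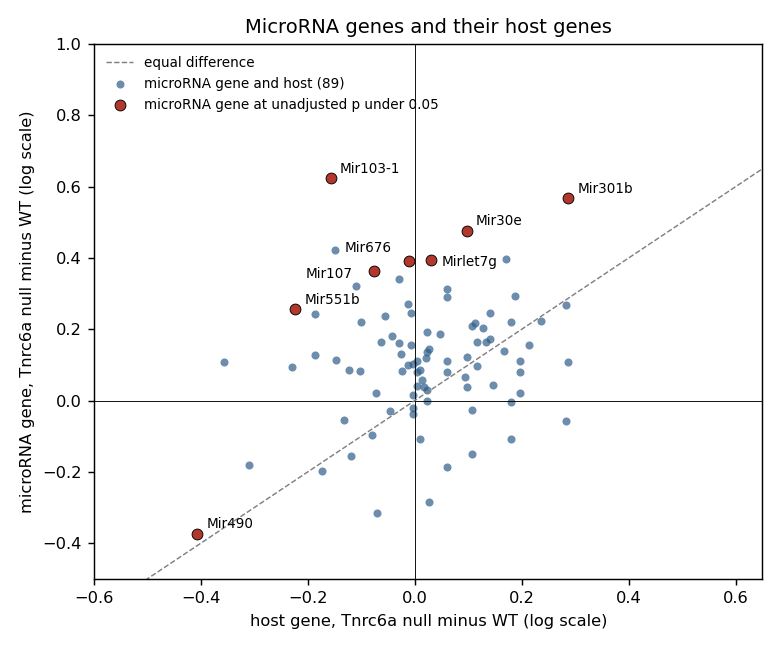
Difference of the microRNA gene (vertical) against that of its host gene (horizontal), Tnrc6a null minus WT on the deposited log scale, for 89 pairs with 1 measured host. The dashed line marks equal differences. All 8 red points, at an unadjusted p under 0.05, lie above the line, with Mir490 and Chrm2 closest to it. They were picked by the p of the microRNA gene itself, and all but Mir490 are higher. Their place above the line was thus largely set by the choice and is no separate result.

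Base composition went with the level of a microRNA probe set. Over the 214 genes with a hairpin in RefSeq, the share of G and C ran from 28.4% to 69.2%, and it correlated with mean level at r = 0.73 (Spearman's rho = 0.73). The points share the 6 arrays, and each is a single probe set. The 71 genes poorest in G and C had a median level of 2.38, the 71 in the middle 3.53 and the 72 richest 4.82. Median differences in these 3 classes were 0.09, 0.13 and 0.11, and 0, 5 and 5 genes were higher at an unadjusted p under 0.05. In the bins of level that hold the 3 median levels, 3.31%, 5.42% and 1.86% of all genes were higher at that p. The dimmest bin, which holds the median of the poorest class, had 0 of its 93 microRNA genes higher at that p. Whether the counts differ with composition beyond this dependence on level was not tested. Composition and difference correlated at r = 0.12.

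**Figure D5:**
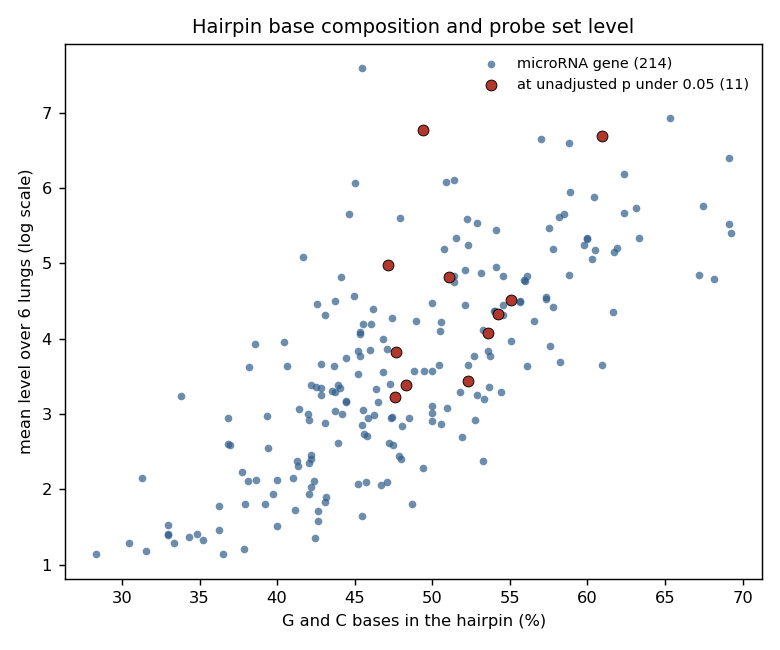
Mean level over the 6 lungs (vertical, deposited log scale) against the share of G and C bases in the hairpin (horizontal, percent) for 214 microRNA genes. Level climbs with the share (r = 0.73), and the 11 red points, the genes at an unadjusted p under 0.05 that have a hairpin sequence, lie in the middle and upper part of it.

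Over the 251 genes the lungs correlated at 0.964 to 0.987 in level. The highest value was not within a genotype but between Tnrc6a null replicate 3 and WT replicate 1. After each gene's mean was taken off, this pair correlated at 0.36, against -0.62 for Tnrc6a null replicates 1 and 3 and -0.37 for WT replicates 1 and 2. Mir692-1 showed the same 2 lungs on top, with 6.33, 6.16 and 6.97 in Tnrc6a null lungs and 6.52, 5.49 and 5.65 in WT lungs (0.60 ± 0.29, SE). With these 2 lungs taken as a block, an adjusted p under 0.05 was reached for 1 microRNA gene, Mir692-1 (adjusted p = 0.0244, limma), among 56 genes of the table. The labels do not tie these 2 lungs together. The block was chosen from their likeness in these same values, so the p-values of that fit are no support for a call.

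Of the 15 genes of the microRNA pathway that were measured, Tnrc6a was lower and 0 others differed at an unadjusted p under 0.05. The nearest was Ago3, an Argonaute, at 6.59, 6.65 and 6.65 in Tnrc6a null lungs and 6.51, 6.47 and 6.43 in WT lungs. These did not overlap and differed by 0.16 ± 0.08 (SE, unadjusted p = 0.0697, limma). The paralogs Tnrc6b and Tnrc6c gave -0.0033 ± 0.15 and -0.09 ± 0.09, Drosha gave -0.07 ± 0.09 and Dgcr8 gave 0.11 ± 0.08 (SE). The 4 long host transcripts, Mir100hg, Mir17hg, Mir670hg and Mir99ahg, did not reach an unadjusted p under 0.05 either. Mir100hg differed by 0.11 ± 0.15 (SE).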

How the data were processed

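The deposited values are on a log scale, log2 by the labels, with a value per probe set and lung, and were used without further scaling. MAS5 is the tool the processing notes name, and neither its version nor its settings are stated in the sources used here. Signal over background was not measured, so dim genes were kept, and the number of arrays (3 against 3) limits the precision. The table holds 35045 probe sets. Those annotated to exactly 1 symbol (21789) were used, and 21698 were renamed by Entrez ID after RefSeq's annotation of GRCm38.p6, which also supplied hosts and neighbours. Where a gene had several probe sets (999 genes), the one with the highest mean was taken.

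Limma 3.58.1 (lmFit, then eBayes with trend, R 4.3.3) was fitted to all 19938 genes, WT subtracted from Tnrc6a null, and p-values were adjusted by Benjamini-Hochberg over the table and a threshold of 0.05. The smallest p of an exact two-sided permutation test of 3 against 3 is 0.1. The fit was also run on simulated lungs with independent spread for each gene and lung. That setting lacks the likeness between lungs seen here, so it does not check the fit under it. Python 3.11.15, pandas 2.3.3, numpy 2.4.6 and matplotlib 3.10.9 served for summaries and plots. P-values measure the spread between these embryos.

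Members and lists were chosen with earlier results of these data known, so lists are described by counts and medians with no test. The genes named were those at an unadjusted p under 0.05, the 10 brightest, up to 4 of smallest p in a group described, Mir146b and Mir92b, which the study's text mentions, and hosts and partners of these. Other genes were named after their values were seen. Deviations from the genotype means correlated between lungs of the same number at -0.295, 0.361 and -0.162, so the numbers were not taken as pairs.

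Alternatives changed the normalization (quantile, array median), a filter on level, the probe set rule, the moderation of the spread, array weights, blocks and the test, and left out each lung in turn.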

Additional observations from a re-analysis of the deposited data

How the results depend on the processing

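No microRNA gene passed the adjusted threshold under any alternative except the block of WT replicate 1 with Tnrc6a null replicate 3, which gave 1 (Mir692-1). That block was chosen from these same values, so its counts are no support for a call. The count higher at an unadjusted p under 0.05 was 11, with 2.46% of all genes higher. It was 7 with quantile normalization over all probe sets (2.01% of all genes), 17 without the trend (3.05%) and 19 with array weights (5.21%). It was 24 with that block (6.48%) and 1 among the 39 genes left above the median level (1.51%). With a lung left out it was 8 to 23 (1.6% to 5.91%), with 23 without Tnrc6a null replicate 3 (5.91%). With the replicate block it was 10 (1.98% of all genes), and with the methods' t-test 12 (2.39%). The count lower was 1, with 2.96% of all genes lower. It was 2 with quantile normalization over all probe sets (2.44% of all genes) and 4 over those with 1 symbol (2.14%). It was 2 with array weights (7.07%), and 0 above the median level (5.36%) and with the replicate block (2.15%). It was 0 to 2 with a lung left out (1.1% to 6.44% of all genes), and 0 without any 1 lung other than Tnrc6a null replicate 3 (2). The median difference (0.10) was 0.037 and 0.026 after the 2 quantile normalizations, when that of all genes was -0.02 and -0.0061, and 0.07 to 0.13 with a lung left out. Genes apart above (21, with 4.67% of all genes) numbered 2 above the median level (2.76% of all genes). With a lung left out they numbered 26 to 59 (8.04% to 13.9%). Genes apart below (1, with 5.51% of all genes) numbered 6 and 8 after quantile normalization (5.45% and 4.77% of all genes). They numbered 2 after centring (9.18%), 0 above the median level (9.43%) and 1 to 12 with a lung left out (7.19% to 18.2%). Leaving out lungs eases this criterion by its construction. Member minus host (0.08) was 0.0125 and, reversed, -0.0078 after quantile normalization, and 0.08 to 0.10 with a lung left out. Mir30e, Mir103-1, Mir301b, Mir680-3 and Mir200c kept an unadjusted p under 0.05 in every alternative that held them. Mir195a lost it in 1, and the other 6 of the 12 in more. Some small differences changed sign: Mir145a (-0.0408) and Mir92b (-0.0423) with array weights, and with a lung left out Mir145a (-0.21 to 0.27), Mir218-1 (-0.005 to 0.30), Mir210 (-0.005 to 0.20), Mir146b (-0.17 to 0.0167) and Mir92b (-0.065 to 0.19). The cause was not tested.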
